A study of Mus musculus with 9 samples.

Results

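Imprinted genes are read mainly from the chromosome inherited from 1 parent, and many of them set the growth of the embryo. Maternally and paternally expressed genes lie in clusters, each governed by an imprinting control region that carries DNA methylation on one parental chromosome. In mesenchymal cells several of these genes are abundant before birth and decline afterwards. The genes described here are H19, Meg3, Rian, Dlk1, Peg3, Mest, Plagl1, Grb10, and Ndn, which are imprinted genes expressed in mesenchyme. They were taken by symbol from the deposited table, which gave 9 of its 43346 genes, 1 row for each symbol. The set leaves out Igf2 and Cdkn1c. Of the 9 genes, 4 are known as maternally expressed (H19, Meg3, Rian, and Grb10) and 5 as paternally expressed (Dlk1, Peg3, Mest, Plagl1, and Ndn). RNA-Seq counts add up both parental copies, so neither the expressed allele nor DNA methylation was measured.

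The libraries came from lung fibroblasts of aged Col1a1-GFP mice (72 weeks in the sample labels and 18 months in the series text). The mice were males on an FVB background. All mice carried the reporter, in which the collagen I promoter drives GFP, so the sort takes cells with that promoter active. The aged sham group (n = 4) received saline and the aged bleo group (n = 5) bleomycin, a drug that injures the lung and causes fibrosis, each once into the trachea, and GFP+, CD45-, CD31-, EpCAM- cells were sorted after 30 days. Whether a library came from 1 mouse or from a pool is not stated in the labels, and p-values measure the spread between these libraries. Counts summed to 49921946 to 62370512 per aged sham library and to 53833507 to 68260600 per aged bleo library, and the 9 genes took 0.0525% to 0.0753% of them. Levels are given as CPM, counts scaled to a common library total, after TMM normalization, and 3 counts, which a count of 0 allows, equal 0.0409 to 0.0605 CPM. Such limits cover counting error only. Positions of genes are those of the deposited table, on the build mm10 (GRCm38).

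The sorted cells had the markers of fibroblasts. The summed level of 9 fibroblast genes was 27616 to 33185 CPM in aged sham and 57378 to 74823 CPM in aged bleo. Of the 9, 4 were higher (Col1a1, Col1a2, Col3a1, and Pdgfrb), 1 was lower, and 4 were not called. The lower gene was Dcn, which encodes the proteoglycan decorin and fell from 8122 ± 558 CPM (SD, n = 4) to 2795 ± 1249 CPM (SD, n = 5), and Pdgfra, which was not called, was at 912 ± 94.0 and 676 ± 177 CPM. Epcam stayed between 0.409 and 1.20 CPM in all libraries, and Pecam1, which encodes CD31, between 2.44 and 6.70 CPM. Ptprc, which encodes CD45, was at 30.6 to 183 CPM, and the summed level of 6 pan-leukocyte genes was highest in aged sham 4 (384 CPM) and aged bleo 4 (593 CPM). No gene of the leukocyte, endothelial, or epithelial lists was at 0 in all libraries. In the names of the libraries, the final number is the same for the aged sham libraries and aged bleo 4 and differs for the other aged bleo libraries, and its meaning is not stated. In aged bleo 3, 4, and 5, each of the 9 genes lay beyond all aged sham libraries on the side of its group's change. In aged bleo 1 and 2, 8 of the 9 did. Of all tested genes, 32.2% had groups without overlap, and their share beyond aged sham in single libraries was not computed. The part of the final number in these changes was not tested.

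Sequences of the set help to place the results that follow. H19 carries a microRNA precursor in its first exon, and the table has a row of its own for it, Mir675. This row has the coordinates of the hairpin in RefSeq (GRCm38.p6) and lies inside an exon of H19 in GENCODE M21. Meg3 holds the precursor of miR-1906, whose mature sequence lies inside the row Mir1906-1 and an exon of Meg3. The 3 mature microRNAs are printed 5′ to 3′ because their host transcripts are the largest maternal changes in each direction, and the capitals mark the seed (bases 2 to 8), by which a microRNA recognises its targets. They lie on chr7:142577112-142577133 (minus strand), chr7:142577078-142577099 (minus strand), and chr12:109544588-109544609 (plus strand).
mmu-miR-675-5p: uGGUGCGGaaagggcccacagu
mmu-miR-675-3p: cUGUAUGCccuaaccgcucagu
mmu-miR-1906: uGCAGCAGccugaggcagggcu
The 3 seeds differ, and each occurs in 1 mature microRNA of the RefSeq table. Libraries of polyadenylated RNA show host transcripts, and mature microRNAs were not measured.

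RefSeq promoters (250 bases before to 50 bases after a start site, GRCm38.p6) were found for 8 of the 9 genes, with 12 start sites, and H19 had none in the table. Meg3 and Peg3 are printed because their promoters share a motif and both genes fell. Each holds TGACGTCA, the cyclic AMP response element, which reads the same on both strands and is marked by capitals. In Meg3 (chr12:109540746-109541045, plus strand) it begins at position -57 from the start site.
Meg3 promoter: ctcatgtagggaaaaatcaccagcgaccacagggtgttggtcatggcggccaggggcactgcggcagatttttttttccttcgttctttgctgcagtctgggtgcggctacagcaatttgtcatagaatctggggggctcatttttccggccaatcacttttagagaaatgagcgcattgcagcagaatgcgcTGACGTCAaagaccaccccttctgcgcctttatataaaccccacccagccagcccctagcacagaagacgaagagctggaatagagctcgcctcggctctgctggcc
In Peg3 (chr7:6730370-6730669, minus strand) it begins at position -178.
Peg3 promoter: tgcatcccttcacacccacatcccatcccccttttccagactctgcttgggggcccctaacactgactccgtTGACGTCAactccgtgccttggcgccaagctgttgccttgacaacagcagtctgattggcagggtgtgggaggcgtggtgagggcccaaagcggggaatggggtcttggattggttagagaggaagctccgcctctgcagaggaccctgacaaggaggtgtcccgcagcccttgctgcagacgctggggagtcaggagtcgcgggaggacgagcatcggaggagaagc
The motif was looked for after the sequences had been seen, and 1.79% of all 32851 promoters of the table hold it. No other promoter of the set held TGACGTCA. None of the 12 held TGANTCA, the AP-1 motif (7.81% of all promoters, both strands), whose spacing differs from that of TGACGTCA so that the motifs share no match. The ratio of observed to expected CpG, the dinucleotide that is methylated, had a median of 0.527 over the 12 promoters and 0.384 over all promoters. It ranged from 0 at Rian, whose promoter has no CpG, to 0.973 at one Grb10 start site with 45 CpG.

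Whether bleomycin changed the imprinted genes was tested across the 16877 genes whose counts averaged 25 or more, by edgeR's quasi-likelihood test. A gene was called when its Benjamini-Hochberg adjusted p-value (FDR) was under 0.10 and its fold change over 1.5. All 9 genes passed the filter, and all 9 were called, 4 higher and 5 lower in aged bleo, where 23.8% of all tested genes were called (12.3% higher and 11.5% lower). In 8 of the 9, the aged bleo libraries did not overlap the aged sham libraries, as did 32.2% of all tested genes. Plagl1 was the gene with overlap. The 9 genes were chosen with earlier results of these data known, so these counts are no test of the set. The higher genes were H19, Mest, Grb10, and Plagl1, and the lower ones Dlk1, Meg3, Peg3, Rian, and Ndn. Both directions occurred among the 4 maternally expressed genes (2 higher and 2 lower) and among the 5 paternally expressed ones (2 higher and 3 lower). The 4 higher genes had log2 fold changes of 0.61 to 4.57 and the 5 lower ones of -2.53 to -1.27. The median of the 9 was thus the value of Ndn, -1.27, and describes no common shift. That of all tested genes was 0.01. In these bulk libraries, fewer cells of a type and less RNA per cell cannot be told apart.

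**Figure D1:**
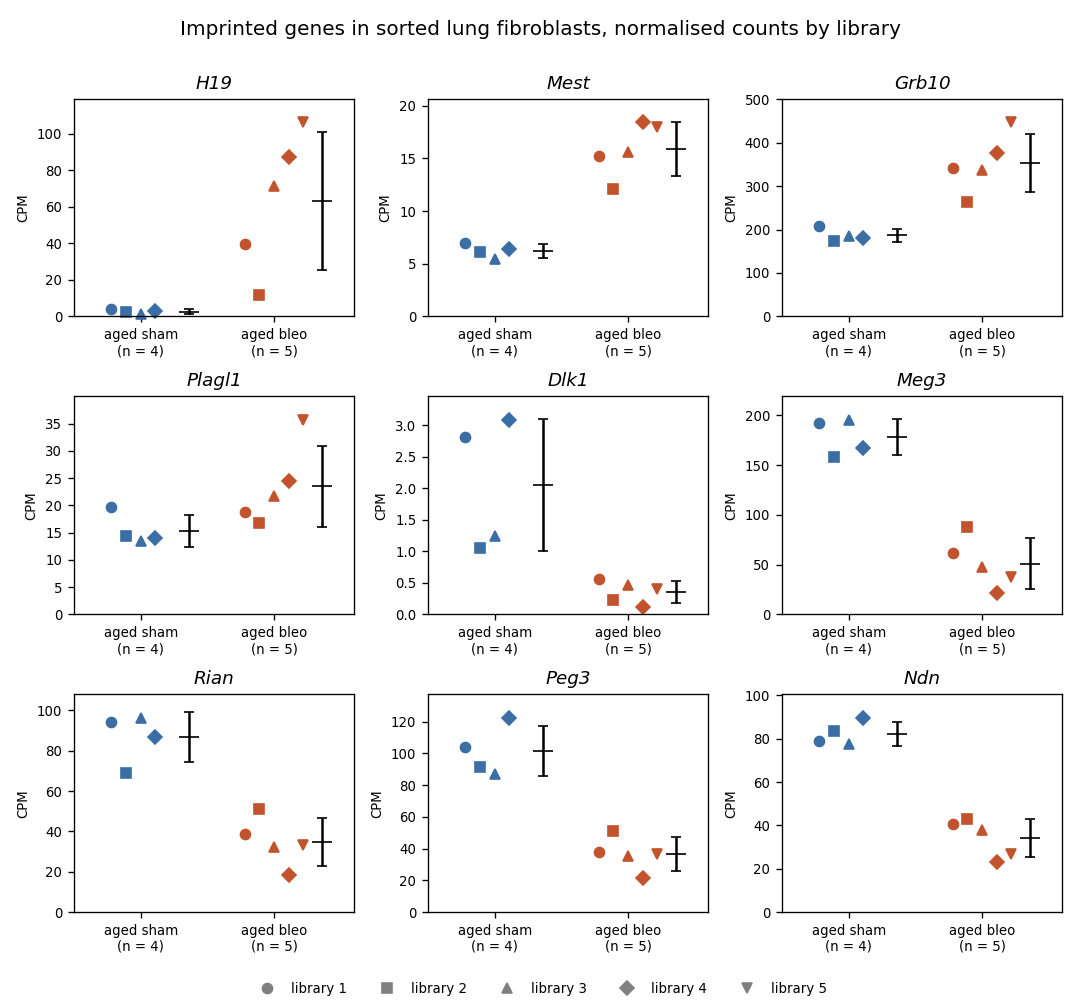
TMM-normalized CPM of each imprinted gene (vertical axes, starting at 0) in the 4 aged sham and 5 aged bleo libraries, 1 symbol per library, with the mean and SD in black. Aged bleo lies above aged sham for H19, Mest, and Grb10 and below it for Dlk1, Meg3, Rian, Peg3, and Ndn, while Plagl1 overlaps.

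H19 (ENSMUSG00000000031, chromosome 7, 142575529 to 142578143, minus strand) is a maternally expressed noncoding RNA, abundant in the embryo and usually low in adult tissue. Its levels were 3.97, 2.36, 1.21, and 3.05 CPM in aged sham 1 to 4. In aged bleo 1 to 5 they were 39.6, 11.4, 71.4, 87.0, and 106 CPM. The lowest injured library, aged bleo 2, was thus above the highest uninjured one, and the injured libraries differed widely among themselves. The mean rose from 2.65 ± 1.17 CPM (SD, n = 4) to 63.2 ± 37.9 CPM (SD, n = 5), with a log2 fold change of 4.57 (SE 0.67, edgeR FDR 0.00136). Its fold change of 23.8 was the largest of the set.

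The rows lying inside H19 moved with it. Mir675, at 0.0389 to 0.210 CPM in aged sham and 0.586 to 5.84 CPM in aged bleo, rose by 4.81 on the log2 scale (SE 0.75, edgeR FDR 0.00189). Gm27483 and Gm27786, 2 short rows of miscellaneous RNA, had log2 fold changes of 4.74 and 4.17. Each of these 3 rows held between 2.17% and 14.5% of the count of H19 in a library. All 3 lie within exons of H19, Mir675 on its strand and the other two on the opposite one, and without strand their reads cannot be told apart from reads of H19 itself.

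Mest and Grb10 rose by smaller amounts and with less spread. Mest (ENSMUSG00000051855, chromosome 6, 30723547 to 30748455, plus strand) encodes a paternally expressed protein of the alpha/beta hydrolase fold that is known from mesoderm and growing fat tissue. Aged sham 1 to 4 had 6.99, 6.07, 5.43, and 6.41 CPM of Mest, and aged bleo 1 to 5 had 15.3, 12.1, 15.6, 18.5, and 18.0 CPM. The groups were clearly apart, and the mean went from 6.23 ± 0.652 CPM (SD, n = 4) to 15.9 ± 2.53 CPM (SD, n = 5). Its log2 fold change was 1.35 (SE 0.14, edgeR FDR 0.000213), the lowest FDR of the set. Mir335, a microRNA row within Mest, had at most 1 count in any library.

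Grb10 (ENSMUSG00000020176, chromosome 11, 11930508 to 12038683, minus strand) encodes an adaptor that binds the insulin and IGF1 receptors and limits their signal. It is maternally expressed outside the nervous system. Grb10 was at 208, 173, 185, and 181 CPM in aged sham 1 to 4. In aged bleo 1 to 5 it was at 342, 263, 337, 377, and 448 CPM. All injured libraries were higher, with aged bleo 2 the nearest to aged sham. From 187 ± 14.8 CPM (SD, n = 4) the mean rose to 353 ± 67.5 CPM (SD, n = 5), with a log2 fold change of 0.92 (SE 0.14, edgeR FDR 0.00194).

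Plagl1 (ENSMUSG00000019817, chromosome 10, 13060504 to 13131694, plus strand) encodes a zinc finger transcription factor, also called Zac1, that can stop the cell cycle and regulates other imprinted genes. Its levels of 19.7, 14.3, 13.4, and 14.0 CPM in aged sham 1 to 4 overlapped the 18.7, 16.8, 21.8, 24.4, and 35.7 CPM of aged bleo 1 to 5. Aged sham 1 was above aged bleo 1 and aged bleo 2. The mean was 15.3 ± 2.91 CPM (SD, n = 4) in aged sham and 23.5 ± 7.42 CPM (SD, n = 5) in aged bleo. With a log2 fold change of 0.61 (SE 0.22, edgeR FDR 0.0563), Plagl1 was just past the fold threshold at 1.53-fold. The call was lost without aged sham 2, 3, or 4 (log2 fold changes 0.58, 0.57, and 0.57) and without aged bleo 5 (0.42).

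**Figure D2:**
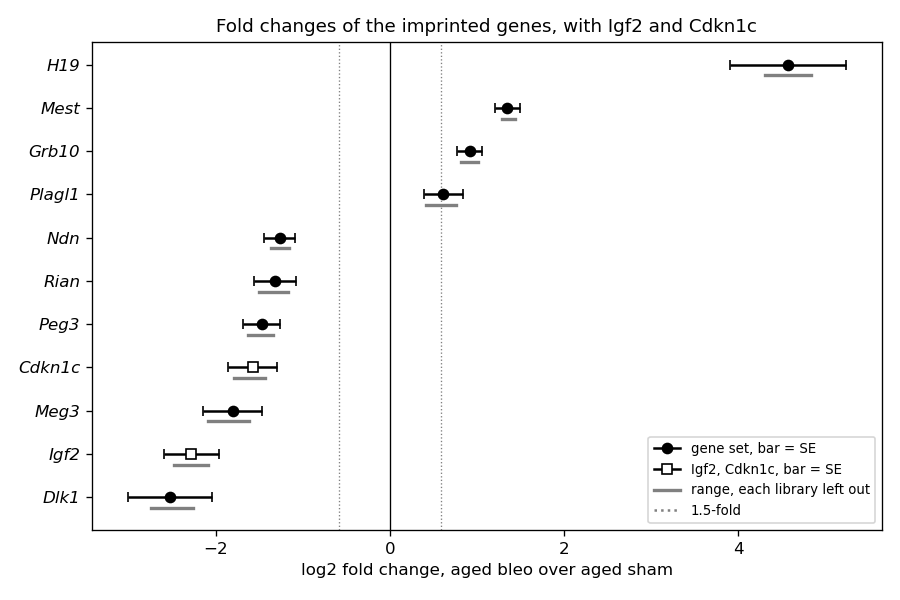
Log2 fold changes of aged bleo over aged sham for the 9 imprinted genes (filled circles) and for Igf2 and Cdkn1c (open squares), with standard errors as black bars. Grey bars give the range with each library left out in turn, and dotted lines mark 1.5-fold in either direction. H19 stands far to the right at 4.57, Plagl1 lies at the 1.5-fold line, and 5 genes of the set lie between -2.53 and -1.27.

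Of the 5 lower genes, 3 are neighbours on chromosome 12. Dlk1 (ENSMUSG00000040856, 109452823 to 109463336, plus strand) encodes a paternally expressed membrane protein with EGF repeats, known as an inhibitor of fat cell differentiation. It was scarce before injury, at 2.81, 1.04, 1.25, and 3.09 CPM in aged sham 1 to 4. Aged bleo 1 to 5 had 0.558, 0.231, 0.467, 0.123, and 0.403 CPM. Every injured library was lower than every uninjured one, although the uninjured libraries split into a higher pair (1 and 4) and a lower pair (2 and 3). From 2.05 ± 1.05 CPM (SD, n = 4) the mean went to 0.356 ± 0.177 CPM (SD, n = 5), a log2 fold change of -2.53 (SE 0.48, edgeR FDR 0.00487). These levels rest on 9 to 174 counts per library. On the log2(FPKM + 1) scale, where low values are compressed, the log2 fold change was -0.16 and the call was lost.

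Meg3 (ENSMUSG00000021268, 109541001 to 109571726, plus strand) is a maternally expressed long noncoding RNA that is known to restrain growth. The uninjured libraries had 192, 158, 196, and 167 CPM of it. The injured libraries 1 to 5 had 61.7, 87.6, 47.3, 21.2, and 37.2 CPM. The highest injured library therefore lay far under the lowest uninjured one, and aged bleo 4 was lowest. The mean fell from 178 ± 18.4 CPM (SD, n = 4) to 51.0 ± 25.3 CPM (SD, n = 5), with a log2 fold change of -1.81 (SE 0.34, edgeR FDR 0.00438). Of 5 rows that overlap Meg3, 2 were tested and both were lower, Mir1906-1 with a log2 fold change of -1.70 and Gm26906 with -1.83. Reads on these rows may be those of Meg3.

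Rian (ENSMUSG00000097451, 109603940 to 109661716, plus strand), also maternally expressed and noncoding, is the host of small nucleolar RNAs and microRNAs. Its levels were 94.3, 69.1, 96.4, and 86.6 CPM in aged sham 1 to 4 and 38.6, 51.2, 32.3, 18.5, and 33.2 CPM in aged bleo 1 to 5. The order of the injured libraries resembled that of Meg3, with aged bleo 2 highest and aged bleo 4 lowest. Rian fell from 86.6 ± 12.4 CPM (SD, n = 4) to 34.8 ± 11.8 CPM (SD, n = 5), and its log2 fold change was -1.32 (SE 0.24, edgeR FDR 0.00422). Of 19 rows that overlap Rian, 1 passed the filter, Gm24895, a small nucleolar RNA with a log2 fold change of -1.05 and overlapping groups.

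Peg3 and Ndn, both paternally expressed from other parts of chromosome 7, fell as well. Peg3 (ENSMUSG00000002265, 6703892 to 6730421, minus strand) encodes a large zinc finger protein. Its 4 uninjured libraries had 104, 91.6, 87.2, and 123 CPM, and the injured libraries 1 to 5 had 38.0, 51.1, 35.3, 21.5, and 36.5 CPM. The groups did not overlap, and the mean went from 101 ± 15.8 CPM (SD, n = 4) to 36.5 ± 10.5 CPM (SD, n = 5). The log2 fold change was -1.47 (SE 0.21, edgeR FDR 0.00128).

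Ndn (ENSMUSG00000033585, 62348277 to 62349928, plus strand) encodes necdin, a protein of the MAGE family that restrains cell proliferation. Uninjured fibroblasts held a narrow range of Ndn, 79.0, 83.3, 77.4, and 89.8 CPM in aged sham 1 to 4. Levels in aged bleo 1 to 5 were 40.7, 42.9, 38.0, 23.0, and 26.6 CPM. The injured libraries formed a higher trio (1 to 3) and a lower pair (4 and 5), all of them under aged sham. The mean fell from 82.4 ± 5.53 CPM (SD, n = 4) to 34.2 ± 8.91 CPM (SD, n = 5), with a log2 fold change of -1.27 (SE 0.18, edgeR FDR 0.00121).

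Within aged bleo, the same libraries tended to mark the extremes of these genes. Aged bleo 2 was nearest to the aged sham mean in 8 of the 9, and for Dlk1 aged bleo 1 was nearest. Aged bleo 4 was farthest in 6 and aged bleo 5 in the other 3 (H19, Grb10, and Plagl1). The 9 genes come from the same libraries, so these counts are no independent observations. How often these libraries were extreme among all tested genes was not computed, so the order cannot be called a trait of the set. Leaving out aged bleo 2 or aged bleo 4 ended the call of none of the 9 genes.

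Per unit of gene length, the order of the genes differed between the groups. On the scale of FPKM, fragments that the authors divided by gene length and library total, Ndn was highest in aged sham at 20.9 ± 1.17 (SD, n = 4), followed by Grb10 at 8.62 ± 0.670, Meg3 at 4.13 ± 0.440, Peg3 at 3.19 ± 0.443, and Rian at 2.08 ± 0.293. Plagl1 (0.822 ± 0.155), Mest (0.663 ± 0.0651), H19 (0.467 ± 0.203), and Dlk1 (0.151 ± 0.0755) were lowest. The ranges of neighbours in this order overlapped for Meg3 and Peg3 and for each pair from Plagl1 down to Dlk1. In aged bleo, Grb10 was highest at 16.8 ± 3.46 FPKM (SD, n = 5), and H19 came second at 11.5 ± 7.01. Ndn followed at 8.87 ± 2.14, Mest at 1.74 ± 0.317, Plagl1 at 1.30 ± 0.423, Meg3 at 1.20 ± 0.577, Peg3 at 1.17 ± 0.316, Rian at 0.851 ± 0.275, and Dlk1 at 0.0270 ± 0.0133. In aged bleo, neighbours overlapped except for Ndn with Mest and Rian with Dlk1.

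Genes of one imprinted domain moved together in some domains and apart in others. H19 and Igf2 lie 72.6 kb apart and share enhancers, which the imprinting control region between them directs to H19 on the maternal and to Igf2 on the paternal chromosome. Igf2, which encodes insulin-like growth factor 2, was at 90.5, 108, 82.1, and 89.8 CPM in aged sham 1 to 4 and at 22.7, 28.7, 21.1, 7.70, and 14.9 CPM in aged bleo 1 to 5 (log2 fold change -2.28, SE 0.31, edgeR FDR 0.00101). The pair thus moved in opposite directions in every injured library. The ratio of H19 to Igf2 in FPKM was 0.0355 to 0.106 in the aged sham libraries and 0.963 to 27.3 in the aged bleo libraries. Cdkn1c, an inhibitor of cyclin-dependent kinases 792 kb from Igf2 and under another control region, fell from 45.7 ± 7.58 CPM (SD, n = 4) to 15.3 ± 6.17 CPM (SD, n = 5).

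In the chromosome 12 domain, Dlk1 and Dio3 lie 816 kb apart. Next to the 3 genes of the set, Rtl1, a paternally expressed gene derived from a retrotransposon, went from 0.985 ± 0.159 CPM (SD, n = 4) to 0.408 ± 0.177 CPM (SD, n = 5), with a log2 fold change of -1.28 (SE 0.36, edgeR FDR 0.0228). Reads of its maternal antisense transcript cannot be told apart without strand. Mirg, a maternal microRNA host 68.0 kb beyond Rian, had a log2 fold change of -0.93 (SE 0.36, edgeR FDR 0.0687). Its call was lost without any one aged sham library and without aged bleo 3 or 5 (log2 fold changes -0.99 to -0.85). Dio3, at the far end, encodes the deiodinase that inactivates thyroid hormone and moved the other way. It was at 0.533, 0.479, 0.623, and 0.585 CPM in aged sham 1 to 4 and at 4.04, 2.84, 2.28, 5.31, and 4.94 CPM in aged bleo 1 to 5 (log2 fold change 2.80, SE 0.29, edgeR FDR 0.000209). The neighbour Begain did not pass the thresholds (log2 fold change -0.57, edgeR FDR 0.127). The ratio of Meg3 to Rian in FPKM was 1.86 to 2.21 in aged sham and 1.08 to 1.65 in aged bleo, without overlap.

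**Figure D3:**
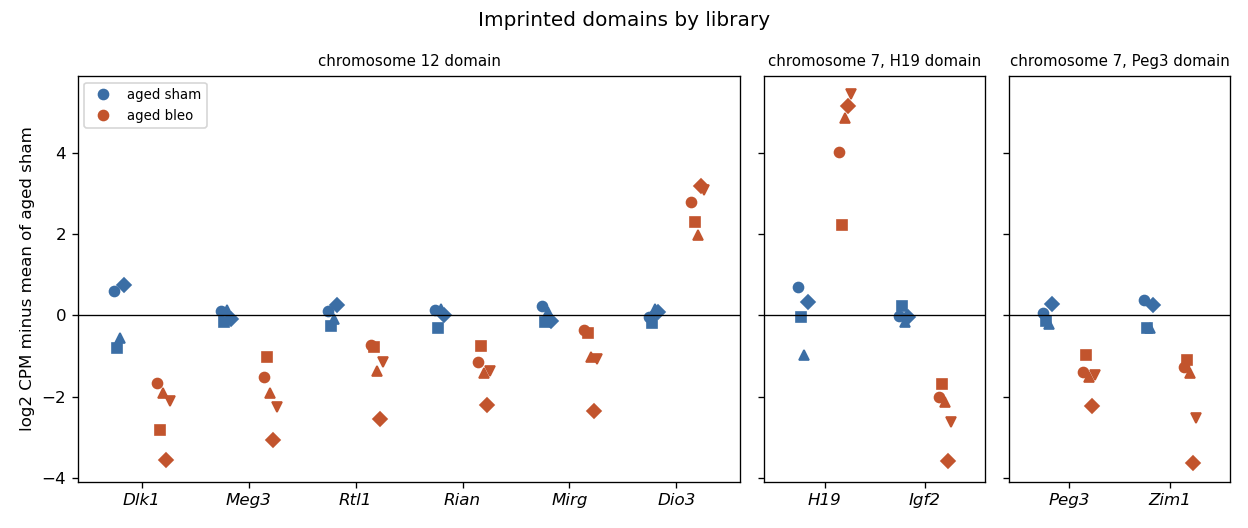
Log2 CPM of genes in 3 imprinted domains, each library given as its difference from the mean of aged sham (vertical axis), with genes in chromosomal order within the chromosome 12 domain and symbols for the libraries as in the plot of levels by library. Blue symbols are the 4 aged sham and orange symbols the 5 aged bleo libraries. Dio3 lies above 0 and its 5 neighbours below in all aged bleo libraries, and H19 and Igf2 lie on opposite sides.

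Neighbours of the other genes were mixed. Zim1, a zinc finger gene 7.44 kb from Peg3, fell with it from 6.31 ± 1.59 CPM (SD, n = 4) to 1.84 ± 1.03 CPM (SD, n = 5), with a log2 fold change of -1.78 (SE 0.46, edgeR FDR 0.0169). Usp29 had no counts in any library. Beside Mest, Copg2 remained under the thresholds (log2 fold change 0.15, SE 0.07, edgeR FDR 0.107), and its table row overlaps that of Mest by 902 bases. Klf14 was at 0.0183 CPM or less. Magel2, 27.1 kb from Ndn, was at 0.0178 CPM or less, under the level that a count of 0 allows. Farther away in that domain, Snrpn fell by 0.66 on the log2 scale (SE 0.18, edgeR FDR 0.0186) and Snurf, which shares its transcript, had a log2 fold change of -0.67 with overlapping groups. The call of Snrpn was lost without aged sham 2 (-0.57) or aged bleo 4 (-0.58). Peg12, of the same domain, rose by 1.07 (SE 0.20, edgeR FDR 0.00440). Around Grb10, Ddc, which encodes an amine-forming decarboxylase 32.4 kb away, rose by 1.19 (SE 0.26, edgeR FDR 0.00823), and Cobl, an actin nucleator 198 kb away, had a log2 fold change of -1.87 (SE 0.34, edgeR FDR 0.00369). The neighbour of Plagl1, Phactr2, was not called (log2 fold change -0.17, edgeR FDR 0.228).

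A wider list of imprinted genes showed calls in both directions. Of 56 genes listed besides the 9, 54 were in the table and 46 passed the filter, of which 8 were higher, 14 lower, and 24 not called. Of all tested genes, 12.3% were higher and 11.5% lower. The median log2 fold change of the 46 was -0.24. Among the higher ones besides Dio3, Ddc, and Peg12 were Peg10, derived from a retrotransposon (10.6 ± 1.96 CPM, SD, n = 4, in aged sham and 19.5 ± 5.57 CPM, SD, n = 5, in aged bleo), and Dhcr7, of cholesterol synthesis, with a log2 fold change of 0.64. Nespas, a noncoding RNA antisense to Gnas transcripts, was below 1 CPM in all libraries and had a log2 fold change of 1.51 (SE 0.56, edgeR FDR 0.0620). Dhcr7 lost its call without aged sham 2 (0.56), and Nespas without aged sham 1 (1.51, edgeR FDR 0.119). Among the lower ones besides those of the domains above, Rasgrf1, an exchange factor for Ras, had a log2 fold change of -2.12 (SE 0.39, edgeR FDR 0.00394). Slc22a18, a membrane transporter, had -1.42 and Ppp1r9a, the actin-binding neurabin, -1.40. Without aged sham 2, the count of lower genes was 9 instead of 14.

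Genes that set or keep imprints were tested next. With 12.3% of all tested genes higher and 11.5% lower, 4 of 20 such genes that passed the filter were higher and 16 not called. Their median log2 fold change was 0.13. The edgeR test called 0 lower, as did DESeq2 and limma-trend, and 1 gene with a lower mean had an unadjusted p under 0.05. Zfp57, which binds methylated control regions, rose from 4.33 ± 0.633 CPM (SD, n = 4) to 9.95 ± 1.43 CPM (SD, n = 5), a log2 fold change of 1.20 (SE 0.14, edgeR FDR 0.000485). Dnmt3a, a de novo DNA methyltransferase, rose by 0.60 (SE 0.13, edgeR FDR 0.00683), and its call was lost without aged sham 3 (0.55), aged sham 4 (0.53), or aged bleo 3 (0.56). Uhrf1 and Hells act in the maintenance of methylation at replication and overlapped between groups, with log2 fold changes of 2.37 and 2.23. Uhrf1 lost its call without aged sham 4 (2.19, edgeR FDR 0.101), and the count of higher genes was then 2. The maintenance methyltransferase Dnmt1 (log2 fold change 0.41, edgeR FDR 0.0896) passed the FDR threshold but not that of fold change. Ctcf (0.02, edgeR FDR 0.843), which binds the control region of H19, passed neither. Uhrf1, Hells, Dnmt1, and Ctcf are named after their values were seen. All 10 cell cycle genes listed were higher, with a summed level of 18.1 to 78.8 CPM in aged sham and 51.8 to 390 CPM in aged bleo, and their part in these results was not tested.

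Genes of insulin and IGF signalling, on which Grb10 acts, were also listed. Of 17 that passed the filter, 5 were higher, 3 lower (Igf2, Igf2bp3, and Irs2), and 9 not called, with a median log2 fold change of 0.21. Igf2 and Igf2r are also counted among the other imprinted genes above. Of all tested genes, 12.3% were higher and 11.5% lower. Igf1 rose from 215 ± 33.6 CPM (SD, n = 4) to 1022 ± 215 CPM (SD, n = 5). Its log2 fold change was 2.25 (SE 0.19, edgeR FDR 7.82e-05). Grb14, a relative of Grb10 with the same kind of adaptor, rose by 1.48 (SE 0.24, edgeR FDR 0.00220). Igf2bp2, an RNA-binding protein, rose by 1.04, while its relative Igf2bp3 had a log2 fold change of -1.10. Pik3r1, the regulatory subunit of phosphoinositide 3-kinase, rose by 0.67 and Ptpn1, a phosphatase of the insulin receptor, by 0.62. The call of Ptpn1 was lost without aged bleo 4 (0.57). Irs2, a receptor substrate, had -0.88 with overlapping groups. The receptors Insr (log2 fold change -0.36, edgeR FDR 0.0332) and Igf1r (-0.15, edgeR FDR 0.419) did not pass both thresholds, nor did Igf2r (0.28, edgeR FDR 0.105), which clears IGF2. Pik3r1, Ptpn1, Irs2, and the receptors are named after their values were seen.

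**Figure D4:**
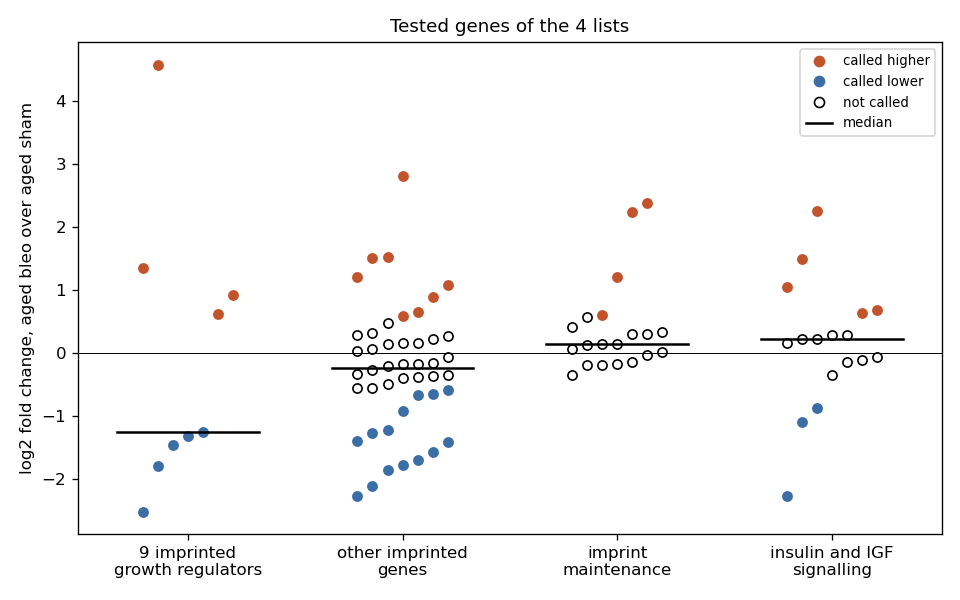
Log2 fold changes of aged bleo over aged sham (vertical axis) for the tested genes of 4 lists, with 1 point per gene, orange for called higher, blue for called lower, open for not called, and a black line at the median. All 9 imprinted growth regulators were called, against 22 of the 46 other imprinted genes, 4 of the 20 imprint maintenance genes, and 8 of the 17 insulin and IGF signalling genes. Igf2 and Igf2r are counted both among the other imprinted genes and among the insulin and IGF signalling genes. Of all tested genes, 23.8% were called. The lists were chosen with earlier results of these data known, so these counts are no test of one list against another.

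Summed levels of marker genes of several cell types also differed between the groups. For comparison with the lists below, 12.3% of all tested genes were higher and 11.5% lower. Of 8 genes marking adventitial fibroblasts, 7 were lower and 1 was not called, and their summed level was 11381 to 12188 CPM in aged sham and 2753 to 7216 CPM in aged bleo. Aged bleo 2 was highest and aged bleo 4 lowest of the injured libraries in this sum, as they were for Meg3, Rian, Peg3, and Ndn. Of 8 alveolar fibroblast genes, 4 were lower and 1 higher, with sums of 4193 to 6088 CPM and 1289 to 3943 CPM. Aged bleo 2 was again highest and aged bleo 4 lowest of the injured libraries in this sum. The same libraries were highest and lowest for smooth muscle and pericyte genes (1922 and 917 CPM) and adipocyte genes (50.1 and 19.1 CPM). The order is thus not particular to adventitial genes, and not every list shared it. Of 8 genes of fibrotic fibroblasts, 5 were higher and 1 lower, and their sum was 2085 to 3970 CPM in aged sham and 6532 to 11440 CPM in aged bleo. Of 8 macrophage genes, 4 were higher, with sums of 141 to 264 CPM and 445 to 1503 CPM. Summed levels of 9 Schwann cell and neuron genes, of which 2 were higher and 1 lower, were 39.4 to 60.2 CPM and 25.9 to 43.0 CPM. Of 7 endothelial genes, 1 was higher and 1 lower, with sums of 164 to 202 CPM and 26.8 to 71.4 CPM, of which Tek made up 161 ± 12.9 CPM (SD, n = 4) and 28.9 ± 18.8 CPM (SD, n = 5). The part of these cell types in the changes of the imprinted genes was not tested. With aged sham 4 and aged bleo 4 left out together, 3 of the 9 genes were higher and 5 lower, and the gene that lost its call was Plagl1 (log2 fold change 0.54, edgeR FDR 0.178).

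Profiles over the 9 libraries were compared with all tested genes by the root mean square difference of centred log2 CPM, where a smaller value is a closer profile. The nearest genes were picked as the smallest differences, so they lie under the median by construction, and the median only gives the scale. Besides 2 rows that lie inside it (Mir675 and Gm27483), the gene nearest to H19 was Ptprn at 0.45, against a median of 2.37 over tested genes. For Meg3, apart from Mir1906-1, a row inside it, the nearest were Ackr1 (0.13), a chemokine-binding receptor, and Lhfpl4 (0.14), with a median of 1.13. Rian was nearest to Fibin, 2610203C20Rik, and E130102H24Rik (0.15 to 0.16, median 0.82). The closest genes to Peg3 were Lrrc17, the pseudogene Rps12-ps9, and Ankrd6 (0.16 to 0.17, median 0.85), and those to Ndn were Cd248, which encodes endosialin of stromal cells, Lrrc61, and Pla2g4a (0.10 to 0.11, median 0.74). For Dlk1, which rests on 9 to 174 counts per library, the nearest were Cdh9, 7420461P10Rik, and Avpr1a at 0.55 to 0.57 (median 1.40). Grb10 was nearest to Dpy19l1, Slc31a1, and the integrin gene Itgb1 (0.07 to 0.09, median 0.56), and Mest to Pxdn, which encodes a matrix-linked peroxidase, Gtf2ird1, and Chst2 (0.09, median 0.73). Plagl1 was nearest to Fancm, Pabpc1, and Hmox1 (0.12 to 0.14, median 0.50). Within the set, the closest pair was Rian and Peg3 (0.19), which lie on different chromosomes, followed by Peg3 and Ndn (0.22) and Grb10 and Plagl1 (0.23). Meg3 and Rian of one domain were at 0.35.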

How the data were processed

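RNA-Seq libraries of sorted Col1a1-GFP lung fibroblasts from 4 aged sham and 5 aged bleo samples were analysed, with none left out. For each of 43346 genes, the authors deposited whole-number read counts without normalization and FPKM values scaled to gene length and library total. Processing notes of the submitters name bcl2fastq, STAR 2.5.2b, Subread, featureCounts, and the builds mm10 and GRCm38, while strand and overlap settings are not given in the sources used here. The TruSeq RNA v2 kit does not mark strand, so reads of overlapping genes may not be separated. Among 42462 identifiers found in GENCODE M21, 33460 have the same position there, including 6 of the 9 genes.

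Differential expression was tested by the quasi-likelihood functions of edgeR 4.0.16 under R 4.3.3 on genes averaging 25 counts or more, after TMM normalization and with no covariate. Calls required a fold change over 1.5 with an FDR under 0.10. The filter and thresholds are those of the study, which used a moderated test. CPM values were scaled by TMM, and a prior count of 2 was added before taking log2. The edgeR, DESeq2, and limma-trend fits and their calls were tested on simulated data, and the other steps were not. Alternatives were DESeq2 1.42.0, limma-trend (limma 3.58.1) on log2 CPM and on FPKM values with 0.1 or 1 added, RLE scaling, scaling by library size, dropping the filter, requiring 10 counts in each library, robust fitting, an FDR under 0.05, omission of single libraries, and a block for replicate numbers.

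The imprinted genes and all lists were chosen with earlier results of these data known. The genes named are the 9, rows overlapping them, their neighbours, Igf2 and Cdkn1c, up to 6 called genes a direction (3 for imprint maintenance and IGF signalling) with the largest change and no overlap between groups, and the 3 genes nearest in profile, besides those said to be named after their values were seen. Markers are named as part of lists.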

Additional observations from a re-analysis of the deposited data

Results flagged for a closer look

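Of 72 groups of libraries examined (36 genes in 2 groups), 2 held a library far from the others by Dixon's test at the 95% level, and chance alone gives about 1 in 20. Plagl1 was at 19.7 CPM in aged sham 1, where the other aged sham libraries were at 13.4 to 14.3 CPM. Ddc was at 0.995 CPM in aged bleo 2, where the other aged bleo libraries were at 1.84 to 2.36 CPM.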

How the results depend on the processing

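Of 188 recomputed fold changes of the 9 imprinted genes, none changed direction and 177 kept their call. Plagl1 lost its call in 10 and Dlk1 in 1, on log2(FPKM + 1), and the 7 other genes kept theirs in every alternative. Dlk1 could not be tested with at least 10 counts in every library, since 1 library had 9. Plagl1 was not called by limma-trend on log2 CPM (0.58, FDR 0.0584), on log2(FPKM + 0.1) (0.56, FDR 0.0629), or on log2(FPKM + 1) (0.32, FDR 0.0768), at an FDR under 0.05, or with the replicate block (0.42, FDR 0.123). Without single libraries, the number of higher genes of the set was 3 to 4 and that of lower genes 5. On log2(FPKM + 1), 960 of all tested genes were higher and 825 lower, against 2082 and 1940, with 2 higher and 4 lower other imprinted genes, 2 higher imprint maintenance genes, and 2 higher insulin and IGF signalling genes, a scale on which low genes are compressed. Leaving out single libraries gave 9 to 16 lower other imprinted genes and 2 to 5 higher imprint maintenance genes, and leaving out aged sham 4 and aged bleo 4 together, an alternative chosen after seeing the data, gave 2 of the latter. Same-numbered libraries of the groups correlated at 0.09, 0.06, -0.13, and 0.33 in their deviations from the group means, and differently numbered ones at -0.21 to 0.25. Whether the numbers pair the samples cannot be told from so few values. With the replicate block, 3 genes of the set were higher and 5 lower. The medians moved by less than the standard errors under RLE normalization (-1.28 for the set) and library size only (-1.27). Values of few counts, as for Dlk1, Rtl1, and Nespas, are limited by depth.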
